A study of Mus musculus with 8 samples.

Results

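The genes described here encode acute phase reactants, other plasma proteins that the liver secretes, and the interleukin-6 signalling parts that control them. They were chosen by name: a list of 32 genes was matched to the gene name column of the scanner files, control spots were left out, and for each gene the probe with the highest mean signal was used. All 32 genes were found, on 38 probes, and all 32 were among the 14387 genes tested. The 32 genes comprised 21 positive acute phase genes, 4 negative acute phase genes, 3 genes of interleukin-6 signalling and 4 other secreted proteins. Each of the 32 probes was well above background on all 8 arrays, and none was saturated.

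Liver RNA came from 12-week-old bl6 mice on chow, taken on day 6 after transduction with pblockIT virus at a dose of 2e+09, for which no unit is given. The control group (4 arrays) received the pblockIT control, and the shRaly group (4 arrays) received pblockIT carrying a short hairpin RNA against Raly, named adenoshRaly in the labels. Both groups thus carried virus, and no group without virus was analysed here. The labels number the samples without saying that each is a separate mouse, so the spread behind each p-value is that between samples and may be technical. All 8 arrays lay on 1 slide in 1 scan, and the control arrays filled one row of it and the shRaly arrays the other, so the row and the treatment cannot be told apart.

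In an acute phase response, cytokines from macrophages, above all interleukin-6, bind receptors on hepatocytes, and STAT3, C/EBP and NF-kB factors then raise transcription of the positive reactants. Positive reactants include serum amyloid A, haptoglobin and orosomucoid. Negative reactants, of which albumin and transthyretin are the classic examples, fall while the response lasts. The comparison of groups asks how this programme differs in livers given a hairpin against Raly, an RNA-binding protein.

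Raly, the target of the hairpin, stood at 100.4%, 84.3%, 105.3% and 112.2% of the control mean on control 1 to 4. On shRaly 1 to 4 it stood at 51.8%, 80.9%, 58.3% and 62.7%. All shRaly arrays lay below all control arrays, with shRaly 2 close to the lowest control (log2 fold change -0.68, SE 0.15, limma adjusted p = 0.0728). Spots well above background made up 45.9% on shRaly 2 and 49.1% to 51.1% on the other arrays. The mean correlation with the other arrays of the group was 0.9925 to 0.9938 for controls and 0.9884 to 0.9916 for shRaly arrays, lowest on shRaly 1. Hepatocyte markers were measured for 10 of 10 genes, with a summed level of 4730 to 5210 on control arrays and 4060 to 5180 on shRaly arrays, in multiples of the array's 75th percentile signal. In whole-liver RNA, fewer cells of a type and less RNA per cell cannot be told apart.

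Regulatory sequences of 4 genes are shown first, and no link between sequence and array values was tested. The genes include Saa1 and Saa2, which were high and low on nearly the same arrays, and Saa3, which did not follow them. Socs3 is shown as the gene with the smallest p-value of the 32. Each sequence is the stretch before the start of the gene in RefSeq (GRCm38.p6), printed 5′ to 3′ on the strand of the gene. Capitals mark matches, on either strand, to TTCNNNGAA (STAT3), TTGCNNAA (C/EBP), GGNNTTTCC (NF-kB) or TGCGCNC (metal response element), and none of the matches shown overlap. The regions are chr7:46742981-46743230 on the minus strand for Saa1, chr7:46751583-46751832 on the plus strand for Saa2, chr7:46715677-46715926 on the minus strand for Saa3 and chr11:117969367-117969616 on the minus strand for Socs3.
Saa1: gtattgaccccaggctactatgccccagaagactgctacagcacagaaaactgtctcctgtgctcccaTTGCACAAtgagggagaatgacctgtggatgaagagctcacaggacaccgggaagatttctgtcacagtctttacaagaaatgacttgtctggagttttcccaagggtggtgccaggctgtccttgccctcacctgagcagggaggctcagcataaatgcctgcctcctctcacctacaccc
Saa2: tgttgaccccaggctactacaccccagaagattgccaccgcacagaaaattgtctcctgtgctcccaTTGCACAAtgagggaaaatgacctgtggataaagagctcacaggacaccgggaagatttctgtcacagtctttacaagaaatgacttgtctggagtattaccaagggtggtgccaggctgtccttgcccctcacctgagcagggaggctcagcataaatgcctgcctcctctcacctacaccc
Saa3: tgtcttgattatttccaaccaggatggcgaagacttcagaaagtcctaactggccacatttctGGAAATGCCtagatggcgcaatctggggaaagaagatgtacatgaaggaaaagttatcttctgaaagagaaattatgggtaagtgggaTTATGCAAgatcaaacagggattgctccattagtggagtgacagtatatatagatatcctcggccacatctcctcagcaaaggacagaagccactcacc
Socs3: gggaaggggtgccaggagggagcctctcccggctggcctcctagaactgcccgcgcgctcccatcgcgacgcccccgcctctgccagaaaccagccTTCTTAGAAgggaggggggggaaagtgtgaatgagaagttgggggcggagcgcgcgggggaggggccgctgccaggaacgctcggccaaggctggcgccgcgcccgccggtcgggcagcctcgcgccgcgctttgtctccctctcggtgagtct

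The Saa1 and Saa2 stretches were identical at 238 of 251 alignment columns (94.8%), whereas Saa3 matched Saa1 at 52.5% and Saa2 at 51.8%. In Saa1 the C/EBP match began 182 bases before the start and in Saa2 183 bases before it. Saa3 held a C/EBP match 99 bases and an NF-kB match 187 bases before the start, and Socs3 held a STAT3 match at 154 bases. Of the 32 genes, 26 had a RefSeq promoter in the table used, which runs to 50 bases after the start. A C/EBP match was found in 15 of the 26 (57.7%), against 12.2% of all 27025 genes with a promoter. STAT3 and NF-kB matches were found in 4 of the 26 each (15.4%), against 9.55% and 6.62% of all genes, and a metal response element in 3 (11.5%), against 17.0%. C/EBP matches were present in 10 of 17 positive and 3 of 3 negative acute phase genes. Only exact matches to the patterns were counted. The Saa1 stretch holds ggagttttcc, which differs from the NF-kB pattern by an added t and was not counted. A match describes letters only and was not tested as a binding site.

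No gene of the list changed past the threshold between the groups. Of the 32 genes, 0 had a limma adjusted p under 0.05, against 1.33% of all genes tested (0.334% higher and 0.994% lower), and the smallest adjusted p was 0.115. At an unadjusted p under 0.05 there were 8 of the 32 (25.0%), against 16.4% of all genes, 2 with a higher and 6 with a lower value in shRaly livers, against 6.59% and 9.85% of all genes. Groups did not overlap for 4 genes (12.5%), against 10.5% of all genes. Of these Saa3 was higher, as were 3.99% of all genes, and Socs3, Il6st and Cp were lower, as were 6.52%. The median log2 fold change of the 32 was -0.12, against -0.02 over all genes, and 24 of the 32 were below 0, against 53.5% of all genes. With quantile normalization 21 were below 0, against 50.9%. The tilt was not particular to this list: of 34 other plasma proteins, 29 (85.3%) were below 0. The shares called were near the background for non-overlap and somewhat above it at the unadjusted p.

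**Figure D1:**
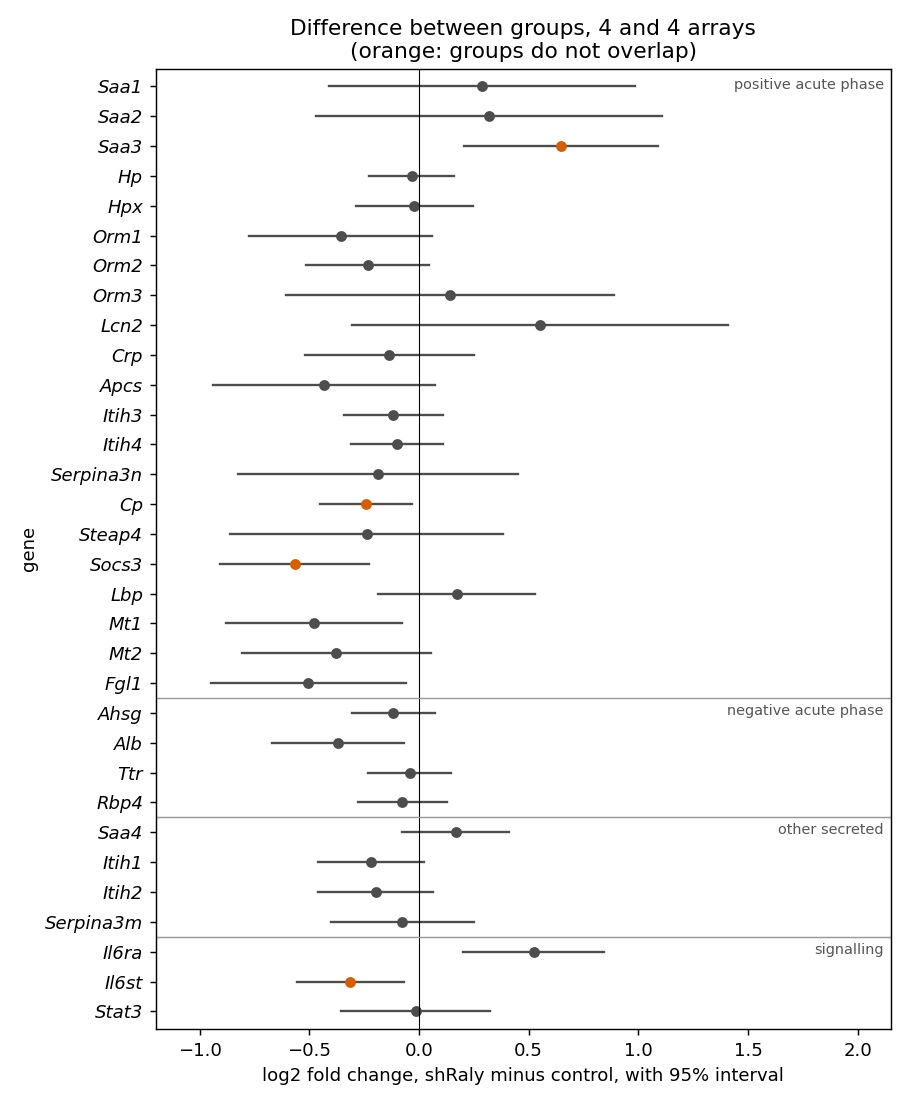
Log2 fold change of each of the 32 genes, shRaly minus control, with its 95% interval from limma over 4 and 4 arrays, grouped by role. Saa3, Cp, Socs3 and Il6st, in orange, are the genes whose groups did not overlap; intervals were widest for Lcn2, Saa2, Orm3 and Saa1.

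Serum amyloid A genes lie side by side on chromosome 7. Saa1 and Saa2 encode the inducible apolipoproteins of the acute phase, Saa3 a form made by macrophages and adipocytes as well as hepatocytes, and Saa4 a constitutive form. Saa1 (probe at chr7:53996070-53996129, mm9) stood at 77.5%, 76.7%, 81.3% and 206.9% of the control mean on control 1 to 4 and at 101.5%, 144.3%, 119.4% and 126.8% on shRaly 1 to 4. Control 4 was thus higher than every shRaly array, while the other 3 controls were lower than every one. The log2 fold change was 0.29 (SE 0.31, 95% interval -0.41 to 0.98, limma adjusted p = 0.692), and without control 4 it was 0.64 (SE 0.13, adjusted p = 0.0847).

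Saa2 (chr7:54009622-54009681, mm9) had the same arrangement. It stood at 72.3%, 75.4%, 78.5% and 233.5% on control 1 to 4 and at 118.9%, 146.6%, 117.0% and 118.7% on shRaly 1 to 4. The shRaly arrays were close together, with an SD of 0.16 on the log2 scale, against 0.82 among controls. Its log2 fold change was 0.32 (SE 0.35, 95% interval -0.47 to 1.11, adjusted p = 0.699), and 0.73 (SE 0.11, adjusted p = 0.0511) without control 4. Leaving out one of the other controls moved both values the other way, to between 0.16 and 0.19 for Saa1 and between 0.16 and 0.20 for Saa2. Neither gene passed the threshold when any 1 array was left out. Saa1 and Saa2 are near-identical copies. The files list 1 RefSeq transcript for each probe. The 2 probes share no run longer than 5 bases, but they were compared with each other and not with the other transcript. That value therefore cannot show whether they tell the copies apart, and hybridisation of a probe to the other copy was not tested.

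Saa3 (chr7:53970389-53970448, mm9) had a different order of arrays. Control 1 to 4 stood at 77.3%, 94.8%, 110.8% and 123.2%, and shRaly 1 to 4 at 219.3%, 136.5%, 133.0% and 151.7%. Every shRaly array was above every control array, and shRaly 1 was the highest. Saa3 signal was 1.57-fold that of controls (log2 0.65, SE 0.20, 95% interval 0.21 to 1.09, limma unadjusted p = 0.00891, adjusted p = 0.151), and without shRaly 1 the log2 value was 0.49 (adjusted p = 0.168). The probe reads these letters of the transcript, from base 56 on, with none in capitals: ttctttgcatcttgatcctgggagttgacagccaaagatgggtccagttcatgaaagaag. Saa4 stood at 114.3%, 102.7%, 87.8% and 97.1% on control 1 to 4 and at 116.9%, 99.9%, 112.1% and 121.5% on shRaly 1 to 4, overlapping, with a log2 fold change of 0.17 (SE 0.11, adjusted p = 0.480).

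Markers of macrophages, which also express Saa3, were measured for 9 of 10 genes, with Timd4 not past the filter. Their summed level was 143 to 213 times the 75th percentile on control arrays and 168 to 208 times on shRaly arrays, with a median log2 fold change of 0.08 and 0 of 9 at an unadjusted p under 0.05. On shRaly 1, where Saa3 was highest, the sum was 168, the lowest of the shRaly arrays. Of 7 adipocyte markers 4 were tested, with Adipoq, Plin1 and Lep not past the filter. Their sum was 12.6 to 28.1 on control and 11.5 to 22.9 on shRaly arrays, with the highest shRaly value on shRaly 1. Control 1, where Saa3 was lowest (77.3%), had the highest adipocyte sum of all arrays (28.1) and the lowest macrophage sum (143). The part of either cell type in the Saa3 values was not tested.

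Lcn2 encodes lipocalin 2, an iron-siderophore binding protein made by hepatocytes in inflammation and by neutrophils. Lcn2 stood at 111.2%, 56.2%, 74.6% and 214.7% on control 1 to 4 and at 164.1%, 103.3%, 158.2% and 172.5% on shRaly 1 to 4. Control 4 again exceeded all other arrays, and the SD among controls, 0.84, was the widest of the 32 genes. The log2 fold change was 0.55 (SE 0.38, 95% interval -0.30 to 1.41, adjusted p = 0.505), 0.92 (SE 0.26, adjusted p = 0.162) without control 4 and 0.28 (adjusted p = 0.790) without control 2. Neutrophil markers, measured for 7 of 10 genes with Mpo, Ngp and Ltf not past the filter, had a median of 0.45 on control 4 and of -0.37 to 0.07 on the other controls, relative to the control mean. On shRaly 1 to 4 that median was 0.22, 0.36, 0.07 and 0.36, with a median log2 fold change of 0.15 over the 7 genes. Their summed level ran from 128 to 173 on control arrays, lowest on control 4, and from 115 to 185 on shRaly arrays. Their part in the Lcn2 values was not tested.

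**Figure D2:**
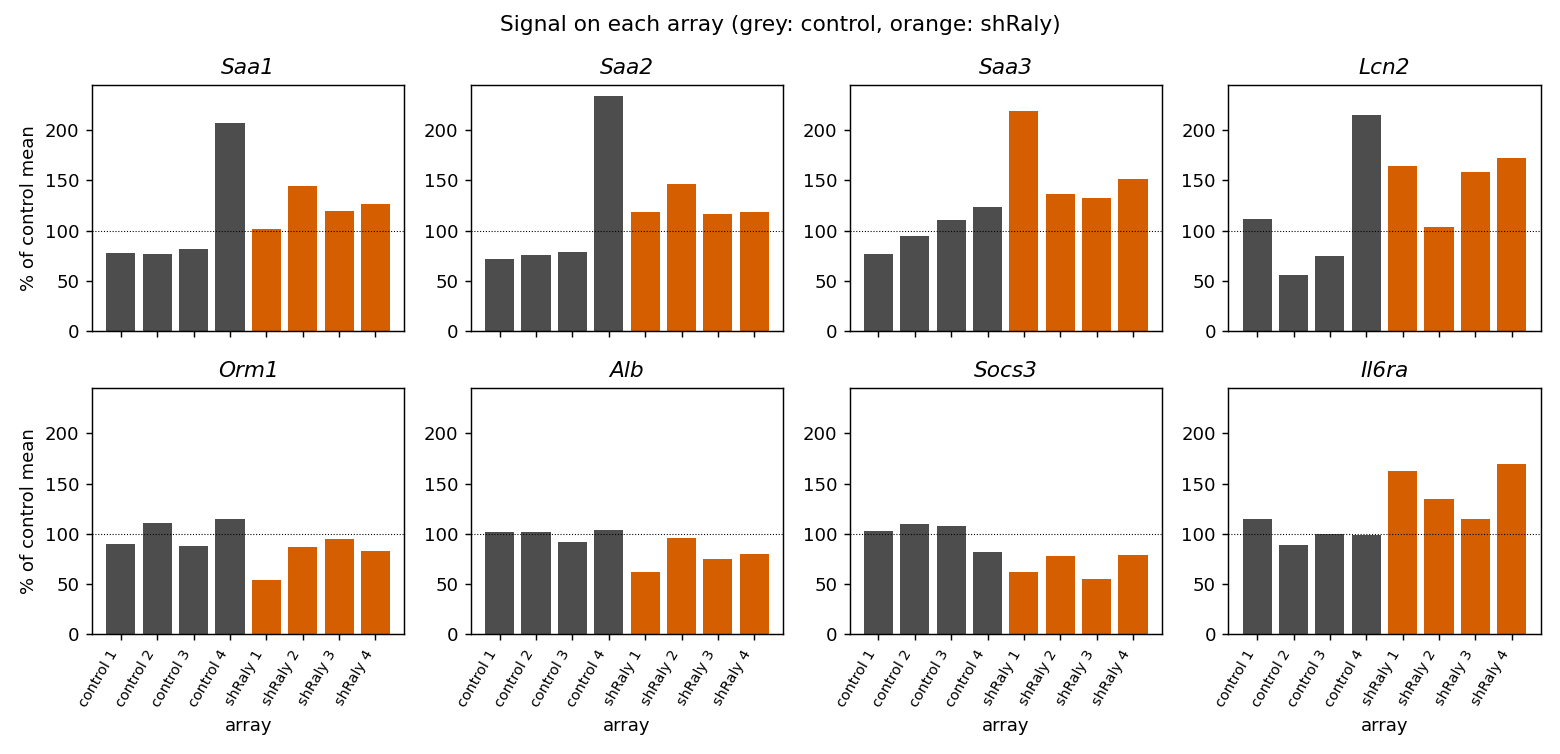
Signal of 8 genes on each array in percent of the control mean (grey, control; orange, shRaly). Control 4 reaches 206.9% for Saa1, 233.5% for Saa2 and 214.7% for Lcn2, while shRaly 1 is at 54.0% for Orm1 and 61.8% for Alb and reaches 219.3% for Saa3.

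The orosomucoids (alpha-1-acid glycoproteins, drug-binding plasma proteins) are encoded by neighbouring genes on chromosome 4. The probes of the 3 genes lie at different places in their transcripts and share no run longer than 7 bases. They were compared with each other and not with the other transcripts, so hybridisation to another copy was not tested. Their sequences are shown because the copies had different values over the arrays.
Orm1: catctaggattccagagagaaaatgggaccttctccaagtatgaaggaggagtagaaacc
Orm2: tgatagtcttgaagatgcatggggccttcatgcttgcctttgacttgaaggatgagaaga
Orm3: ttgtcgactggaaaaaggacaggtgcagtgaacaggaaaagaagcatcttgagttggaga

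Orm1 stood at 90.1%, 110.6%, 87.6% and 114.6% on control 1 to 4 and at 54.0%, 86.7%, 95.4% and 83.4% on shRaly 1 to 4. Orm2 stood at 94.6%, 108.0%, 87.6% and 111.6%, and at 71.3%, 92.5%, 94.9% and 83.7%. In both genes shRaly 1 was the lowest array and the groups overlapped. The log2 fold changes were -0.36 (SE 0.18, adjusted p = 0.381) for Orm1 and -0.23 (SE 0.12, adjusted p = 0.392) for Orm2, and without shRaly 1 they were -0.18 and -0.15. Like its neighbours, Orm3 was highest on control 4, but unlike them it was next highest on shRaly 4. It stood at 113.0%, 77.7%, 66.3% and 171.9% on control 1 to 4 and at 107.2%, 70.1%, 124.1% and 158.3% on shRaly 1 to 4. Its log2 fold change was 0.14 (SE 0.33, adjusted p = 0.875), and its sign turned without control 3 or without shRaly 4.

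Haptoglobin (Hp) and hemopexin (Hpx), which clear free haemoglobin and haem from plasma, had values close to 100% on most arrays. Hp stood at 91.5%, 103.4%, 98.1% and 107.8% on control 1 to 4 and at 95.6%, 103.6%, 94.6% and 97.4% on shRaly 1 to 4, a log2 fold change of -0.03 with a 95% interval of -0.23 to 0.16. That interval leaves out a change of Hp beyond 85.5% or 111.7% of the control level. Hpx ran from 87.5% to 106.2% and from 82.9% to 113.6% (log2 -0.02, SE 0.12). With quantile normalization both values were above 0, at 0.04 for Hp and 0.02 for Hpx.

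The pentraxins and the Serpina3 protease inhibitors had their lowest value on shRaly 1. Crp, C-reactive protein, which is a minor reactant in mice, had control values of 90.9% to 109.8% and shRaly values of 70.2% to 114.0% (log2 -0.14, SE 0.17, and -0.01 without shRaly 1). Apcs, serum amyloid P, the major mouse pentraxin, had 98.0%, 115.7%, 83.9% and 105.0% on control 1 to 4 and 51.3%, 92.0%, 103.7% and 61.5% on shRaly 1 to 4 (log2 -0.43, SE 0.22, adjusted p = 0.380, and -0.26 without shRaly 1). Serpina3n, a serine protease inhibitor of the antichymotrypsin family, had 127.9%, 84.4%, 78.7% and 117.8%, then 49.1%, 97.1%, 109.2% and 114.2%. Only shRaly 1 lay outside the control range for Serpina3n; its log2 fold change was -0.19 (SE 0.28) with all arrays and 0.09 without shRaly 1. Serpina3m ran from 93.7% to 117.3% and from 72.9% to 110.2% (log2 -0.08, SE 0.14), and its sign also turned without shRaly 1, at 0.05, and without control 4, at 0.002.

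The inter-alpha-trypsin inhibitor heavy chains, some of which are attached to hyaluronan in the extracellular matrix, had small differences. Log2 fold changes were -0.22 for Itih1, -0.20 for Itih2, -0.12 for Itih3 and -0.10 for Itih4, with SE of 0.09 to 0.12 and adjusted p of 0.356 to 0.633. A second Itih4 probe gave -0.31 (SE 0.30). In each of the 4 genes the groups overlapped. Without shRaly 1 the values were -0.18 for Itih1, -0.11 for Itih2, -0.05 for Itih3 and -0.07 for Itih4.

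Ceruloplasmin (Cp), the copper-carrying ferroxidase, was lower by a small and even amount. Control 1 to 4 stood at 112.2%, 98.9%, 97.5% and 92.4% and shRaly 1 to 4 at 89.5%, 88.8%, 80.2% and 80.3%, without overlap (log2 -0.24, SE 0.09, unadjusted p = 0.0288, adjusted p = 0.245). A dimmer Cp probe, of another transcript and well above background on 5 arrays, gave -0.47 (SE 0.27). Steap4, a metalloreductase induced by cytokines, ran from 71.7% to 132.1% on control and from 51.3% to 121.0% on shRaly arrays (log2 -0.24, SE 0.28, and 0.003 without shRaly 1). Lbp, which binds bacterial lipopolysaccharide, ran from 81.3% to 118.4% and from 87.2% to 125.2% (log2 0.17, SE 0.16, with 0.07 without control 3 and 0.29 without shRaly 1). Fgl1, a hepatocyte-secreted fibrinogen-like protein, had 89.9%, 96.6%, 85.9% and 134.1% on control 1 to 4 and 51.1%, 82.3%, 68.2% and 86.1% on shRaly 1 to 4. The Fgl1 groups touched at control 3 and shRaly 4 (log2 -0.50, SE 0.20, unadjusted p = 0.0309, adjusted p = 0.252), and 2 other Fgl1 probes gave -0.46 and -0.45.

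Metallothioneins, small proteins that bind zinc and copper, had lower values in shRaly livers on the probes used. Mt1 stood at 88.6%, 102.7%, 81.8% and 134.2% on control 1 to 4 and at 72.3%, 75.9%, 56.9% and 85.1% on shRaly 1 to 4. Mt2 stood at 83.2%, 107.3%, 80.2% and 139.6%, and at 77.5%, 79.0%, 63.2% and 90.9%. In both genes control 4 was highest and shRaly 3 lowest, and the groups overlapped. The log2 fold changes were -0.48 (SE 0.18, unadjusted p = 0.0249, adjusted p = 0.231) for Mt1 and -0.38 (SE 0.19, adjusted p = 0.367) for Mt2, and without control 4 that of Mt2 was -0.22. A second Mt1 probe, listed under another transcript record and also on chromosome 8, had the opposite sign (0.75, SE 0.44), and the mean of both probes gave 0.14.

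**Figure D3:**
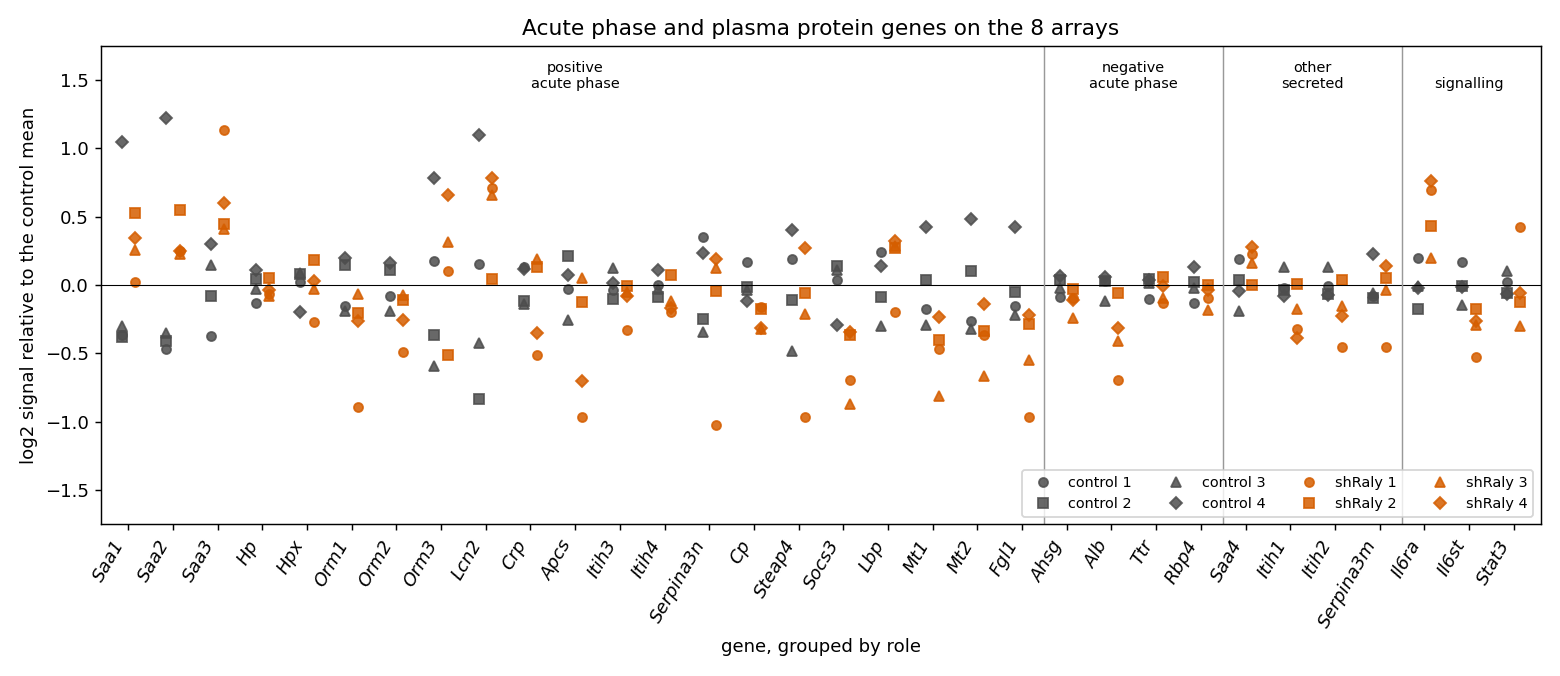
Log2 signal of the 32 genes on every array, relative to the mean of the 4 control arrays (grey, control; orange, shRaly; the marker shape gives the replicate number). Control 4 (grey diamond) stands high for Saa1, Saa2, Orm3 and Lcn2, and shRaly 1 (orange circle) stands low for Orm1, Apcs, Serpina3n, Steap4, Fgl1 and Alb.

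Of the negative reactants, Alb was the only one with an unadjusted p under 0.05. Albumin signal was 102.0%, 102.3%, 92.1% and 104.1% of the control mean on control 1 to 4 and 61.8%, 96.2%, 75.2% and 80.4% on shRaly 1 to 4. Of the shRaly arrays, 3 were thus below all controls, and shRaly 2 lay within the control range (log2 -0.37, SE 0.13, 95% interval -0.67 to -0.07, unadjusted p = 0.0219, adjusted p = 0.219). Without shRaly 1 the log2 value was -0.26 (adjusted p = 0.248), and without shRaly 2 it was -0.47 (adjusted p = 0.0933). Ahsg, fetuin-A, an inhibitor of calcification, had 94.2%, 102.7%, 98.6% and 104.8%, then 93.9%, 97.9%, 84.7% and 92.9% (log2 -0.12, SE 0.08).

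Ttr and Rbp4, which together carry retinol in plasma, varied little. Ttr (transthyretin) had 93.3%, 103.3%, 101.0% and 102.7% on control 1 to 4 and 91.5%, 104.3%, 93.8% and 99.7% on shRaly 1 to 4 (log2 -0.04, 95% interval -0.23 to 0.15). Rbp4 had 91.1%, 101.6%, 98.6% and 109.6%, then 93.7%, a value equal to the control mean, 88.2% and 97.8% (log2 -0.08, 95% interval -0.28 to 0.13). Within groups, the pooled SD of Ttr was 0.08 and that of Ahsg 0.08, smaller than in about 95% of all genes tested (4.98 and 5.2 as percentiles). At the other end stood Lcn2 (0.64, percentile 97.5), Saa2 (0.59, 96.6), Orm3 (0.56, 95.8) and Saa1 (0.52, 94.9). Among controls the median SD was 0.16 for the 32 genes and 0.16 for all genes; among shRaly arrays it was 0.23 against 0.19.

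Interleukin-6 signalling genes had values in opposite directions. Il6ra, the ligand-binding receptor chain (chr3:89674054-89674113, mm9), stood at 114.9%, 88.7%, 99.6% and 98.6% on control 1 to 4 and at 162.3%, 135.1%, 114.7% and 169.9% on shRaly 1 to 4. Of the shRaly arrays, 3 were above all controls and shRaly 3 met the highest control (log2 0.52, SE 0.14, 95% interval 0.20 to 0.85, unadjusted p = 0.00513, adjusted p = 0.121). Il6st, gp130, the shared signal-transducing chain, stood at 112.4%, 99.5%, 90.3% and 99.0% and at 69.4%, 88.8%, 81.8% and 83.3%, without overlap (log2 -0.31, SE 0.11, unadjusted p = 0.0175, adjusted p = 0.199). Stat3, the transcription factor they activate, did not separate the groups, with 101.6%, 96.1%, 107.2% and 95.5% and then 134.4%, 91.6%, 81.1% and 96.0% (log2 -0.02, SE 0.15). A second Stat3 probe gave 0.22 (SE 0.19).

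Socs3, the feedback inhibitor that STAT3 induces (chr11:117827480-117827539, mm9), had the smallest p-value of the 32 genes. Control 1 to 4 stood at 102.5%, 110.2%, 108.2% and 81.8% and shRaly 1 to 4 at 61.9%, 77.7%, 54.8% and 78.8%. All shRaly arrays were below all controls, with control 4 only just above shRaly 4. Signal in shRaly livers was 67.5% of control (log2 -0.57, SE 0.15, 95% interval -0.91 to -0.23, unadjusted p = 0.00445, limma adjusted p = 0.115). Across the 16 alternatives the log2 value lay between -0.66 and -0.47 and the adjusted p between 0.0653 and 0.269.

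The medians of the positive and negative reactants did not part. The 21 positive genes had a median log2 fold change of -0.14 and the 4 negative genes -0.10. Of the 21, 15 were below 0 (71.4%, against 53.5% of all genes). Those above 0 were Saa3 (0.65), Lcn2 (0.55), Saa2 (0.32), Saa1 (0.29), Lbp (0.17) and Orm3 (0.14), a split that the median does not show. All 4 negative genes were below 0. The positive median was -0.02 without shRaly 1, -0.22 without shRaly 2 and -0.22 without shRaly 3, and the negative median was -0.06 without control 4 and -0.06 without shRaly 3. None of the 21 had a limma adjusted p under 0.05, against 1.33% of all genes. At an unadjusted p under 0.05 there were 5 (23.8%, against 16.4% of all genes), Saa3 higher (6.59% of all genes) and Socs3, Mt1, Cp and Fgl1 lower (9.85%). Per array, the median of the positive genes relative to the control mean was -0.03, -0.08, -0.22 and 0.20 on control 1 to 4 and -0.33, -0.04, -0.05 and -0.08 on shRaly 1 to 4. For the negative genes it was -0.09, 0.04, -0.02 and 0.06, then -0.11, -0.02, -0.21 and -0.07. Positive minus negative gave 0.06, -0.11, -0.20 and 0.13 on control arrays (mean -0.03, SD 0.15, n = 4) and -0.21, -0.03, 0.16 and -0.01 on shRaly arrays (mean -0.02, SD 0.15, n = 4). The means differed by 0.005, far less than the SD within either group.

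**Figure D4:**
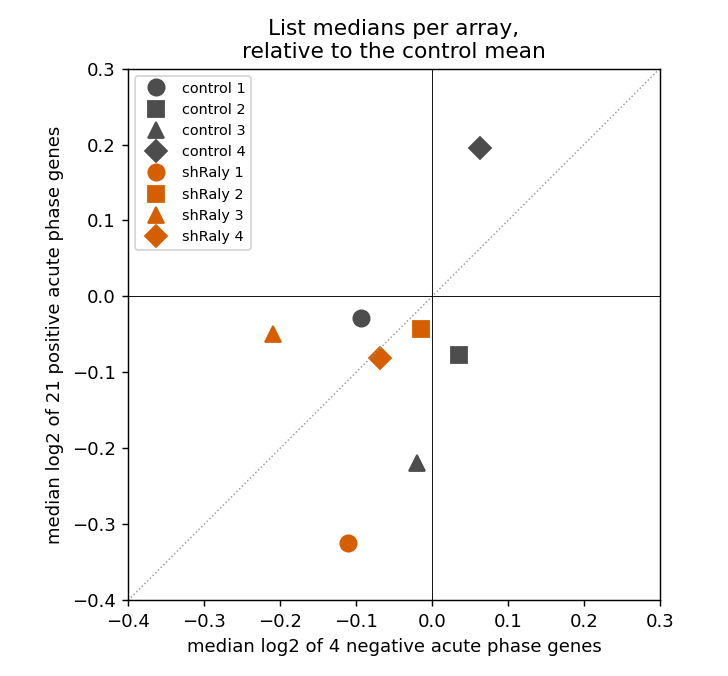
Median log2 signal of the 21 positive acute phase genes against that of the 4 negative ones on each array, relative to the control mean, with the dotted line marking equality. Control 4 lies at 0.20 and shRaly 1 at -0.33 on the vertical axis, and the groups do not separate along either axis.

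The extreme values of many of the 32 genes fell on the same arrays. Control 4 had the highest of the 8 values for 16 of the 32 genes, against 14.9% of all genes tested. It had the lowest for 0, against 8.12% of all genes, and shRaly 2 also had the lowest for 0, against 8.84%. Those 16 were 12 positive genes (Saa1, Saa2, Hp, Orm1, Orm2, Orm3, Lcn2, Itih4, Steap4, Mt1, Mt2 and Fgl1), 3 negative ones (Ahsg, Alb and Rbp4) and Serpina3m. For 15 of the 32 (46.9%), against 22.7% of all genes, shRaly 1 had the lowest value. These 15 were 10 positive genes (Hpx, Orm1, Orm2, Crp, Apcs, Itih3, Itih4, Serpina3n, Steap4 and Fgl1), the negative genes Alb and Ttr, and Itih2, Serpina3m and Il6st. With quantile normalization control 4 was highest for 9 of the 32 (10.6% of all genes) and shRaly 1 lowest for 13 (21% of all genes). Hepatocyte markers had medians of 0.07 on control 4 and -0.18 on shRaly 1, and their part in these counts was not tested. The hepatocyte list includes Alb and Ttr and is thus not independent of the 32 genes.

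**Figure D5:**
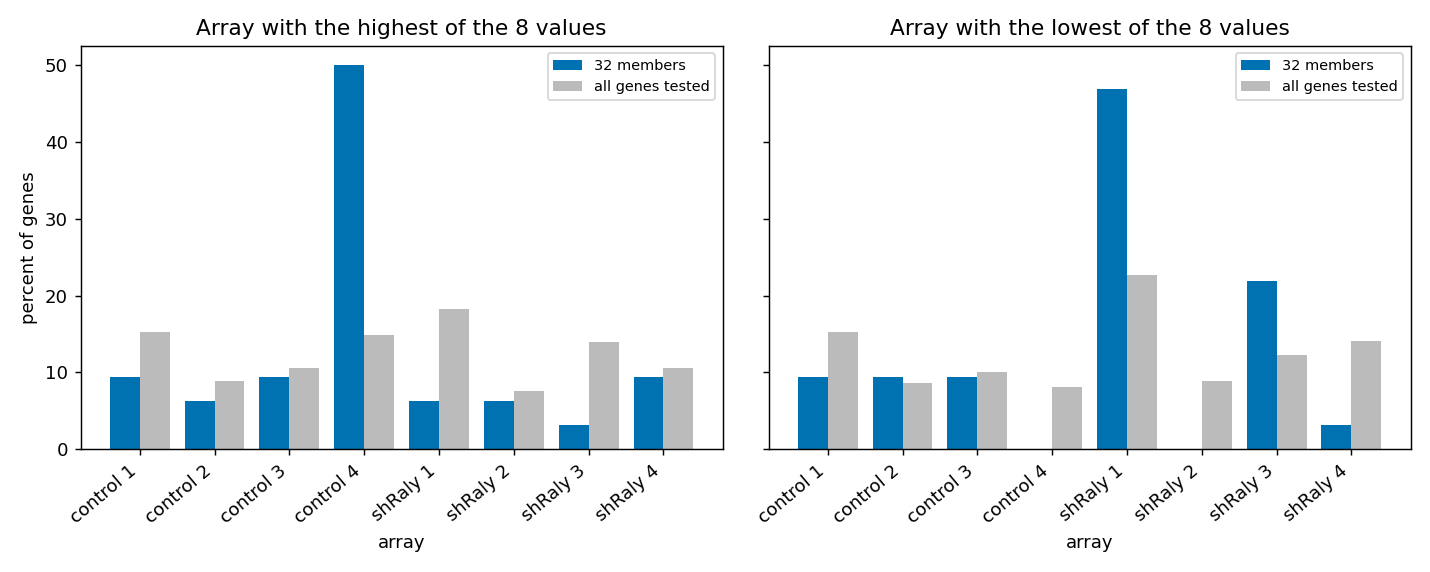
Percent of genes for which each array gave the highest (left) or lowest (right) of the 8 values, for the 32 genes (blue) and for all 14387 genes tested (grey). Control 4 was highest for 16 of the 32 genes and shRaly 1 lowest for 46.9%.

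Genes further up the cytokine pathway were read from a list of 43, of which 37 were tested. Il6, Tnf, Osm, Lif, Il11 and Pias3 did not pass the filter on dim probes. The median log2 fold change of the 37 was 0.03, with 0 genes higher and 1 lower past the threshold (2.70% of those tested, against 1.33% of all genes), and 7 (18.9%) at an unadjusted p under 0.05, against 16.4%. The gene that fell was Il1b, interleukin-1 beta, a cytokine that drives the acute phase response. It stood at 94.0%, 96.6%, 118.8% and 92.7% on control 1 to 4 and at 64.1%, 68.1%, 43.6% and 59.6% on shRaly 1 to 4, without overlap (log2 -0.78, SE 0.15, limma adjusted p = 0.0479). Across the 16 alternatives the log2 value of Il1b lay between -0.86 and -0.45, the latter with another background correction (normexp). The call was at the edge of the threshold and was lost in 12 of 16 alternatives, with limma adjusted p up to 0.146. Among the alternatives that kept it was the deposited table, which repeats the main values. Macrophage markers, whose summed levels are given above, did not separate the groups. Lymphocyte markers, measured for 6 of 7 genes with Klrb1c not past the filter, had sums of 35.4 to 49.9 on control and 21.4 to 37.4 on shRaly arrays, with 3 of 6 lower at an unadjusted p under 0.05, against 9.85% of all genes. Their part in the Il1b values was not tested.

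A few genes of the same list were picked out after their values were seen. Cebpb and Cebpd, the C/EBP factors of the acute phase, were both higher on control 4 than on the other controls. Cebpb stood at 74.4%, 81.6%, 100.1% and 164.5% on control 1 to 4 and at 130.9%, 131.6%, 144.3% and 177.1% on shRaly 1 to 4 (log2 0.53, SE 0.24, adjusted p = 0.305). Cebpd stood at 99.9%, 72%, 83.2% and 166.9%, and at 145.5%, 105.7%, 191.4% and 212.6% (log2 0.66, SE 0.29, adjusted p = 0.306). The groups overlapped for both, and Cebpd on shRaly 2 was close to control 1. Lrg1, a leucine-rich plasma glycoprotein induced by interleukin-6, was lower without overlap (log2 -0.39, SE 0.11, adjusted p = 0.127). The lowest values of the list were those of Junb, a subunit of the AP-1 transcription factor, and Lifr, the leukaemia inhibitory factor receptor. Junb had a log2 fold change of -1.19 (SE 0.41, adjusted p = 0.199) and Lifr -1.17 (SE 0.37, adjusted p = 0.171), with overlapping groups in both. Junb ranged from 62% to 219.1% on control and from 27% to 67.9% on shRaly arrays, and Lifr from 65.5% to 139.5% and from 22.7% to 71.7%.

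Of 37 other plasma proteins, 34 were tested, with a median log2 fold change of -0.11, and 29 (85.3%) were below 0, against 53.5% of all genes. None passed the threshold (0 of 34, against 1.33% of all genes), and 8 (23.5%, against 16.4% of all genes) had an unadjusted p under 0.05, 2 higher and 6 lower (6.59% and 9.85% of all genes). The 4 smallest p-values were those of Fga, Afm, Fgb and Serpina3f. Fga, the fibrinogen alpha chain, stood at 101.2%, 95.4%, 92.5% and 111.9% on control 1 to 4 and at 42.1%, 83.9%, 81.8% and 60.6% on shRaly 1 to 4 (log2 -0.63, SE 0.21, adjusted p = 0.189). Again shRaly 1 was lowest. Afm, afamin, a vitamin E-binding protein of the albumin family, had a log2 fold change of -0.34 (SE 0.12, adjusted p = 0.195), Fgb, the fibrinogen beta chain, -0.29 (SE 0.10, adjusted p = 0.206) and Serpina3f 0.41 (SE 0.16, adjusted p = 0.244).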

How the data were processed

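Arrays were read with Agilent Feature Extraction (11.5.1.1 in the file headers, 11.5.1.11 in the submitters' processing notes). The deposited intensity is the processed signal, which per the file headers had the background subtracted and spatial trends removed, with no step that makes arrays comparable. The deposited table of the whole series equals it on all 62976 spots of each array. Intensities were log2-transformed here and scaled by subtracting the 75th percentile of the non-control spots of the same array. Flagged spots (137 to 163 per array, none of the 32 genes) were set to missing and spots of a probe averaged. A gene was tested if its probe was well above background on at least 4 arrays and had values on at least 3 per group. Groups were compared with limma 3.58.1 in R 4.3.3 over 14387 genes, with Benjamini-Hochberg adjustment and a threshold of 0.05. The fit was tested on simulated data. Probes were named through RefSeq accessions where possible. Percentages are relative to the control mean on the log2 scale. The alternatives were other background corrections, scalings, filters and probe rules, the deposited table of the whole series, a replicate block, and leaving out each array.

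The genes and lists were chosen with earlier results of these data known. Given on every array, by rule, were the Saa, Orm and Mt families, genes at an unadjusted p under 0.05 or without overlap, negative reactants and a few others fixed by name; of other lists, genes past the threshold or otherwise the 4 of smallest p. Apcs, Cebpb, Cebpd, Lrg1, Junb and Lifr are outside this rule. Probe coordinates are mm9, and exon and UTR annotation was not analysed here. Protein sequences were not used here, so the planned comparison of family proteins was not made. The number of arrays limits the precision.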

Additional observations from a re-analysis of the deposited data

Results flagged for a closer look

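In groups of 4 arrays, a single array stood apart from the other 3 for 9 of the 72 groups examined. The rule picks about 1 in 20 for independent values with a normal spread. The share over all genes tested is not given here, so the count cannot be read as particular to these genes. The groups examined also include Il1b and list medians. Control 4 was the high array for Saa1 (206.9% of the control mean), Saa2 (233.5%) and Serpina3m (117.3%). For Saa2 shRaly 2 was also high within its group (146.6%), and for Lcn2 it was low (103.3%). The lowest values were those of shRaly 1 for Lbp (87.2%) and for the median of the positive acute phase genes (-0.33 on the log2 scale), and of control 3 for Alb (92.1%). Control 3 was high for Il1b (118.8%). The genes share arrays, so these are not independent.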

How the results depend on the processing

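None of the 32 genes passed the threshold in any of the 16 alternatives, and the smallest adjusted p was 0.0511 (limma, Saa2 without control 4). The direction was kept in all 16 for 24 genes and turned in at least 1 for 8. For the 32 genes the deposited table, the replicate block and the filter settings returned the main log2 values, so the direction could not turn there. The mean of probes could move it only for the 5 genes with more than 1 probe. The deposited table equals the main input and only repeats the main fit. Quantile normalization gave log2 values of 0.039 for Hp, 0.019 for Hpx and 0.013 for Stat3, scaling to the median gave 0.006 for Stat3, and the mean of all probes of a gene gave 0.137 for Mt1 and 0.102 for Stat3. Leaving out 1 array at a time gave -0.076 to 0.003 for Hp, -0.09 to 0.062 for Hpx, -0.057 to 0.401 for Orm3, -0.147 to 0.052 for Serpina3m, -0.314 to 0.092 for Serpina3n, -0.409 to 0.003 for Steap4 and -0.163 to 0.08 for Stat3. The count of cytokine pathway genes lower past the threshold, 1 (Il1b), was 0 with normexp, median scaling, no filter on dim probes, the mean of probes and the replicate block, and 0 to 1 when single arrays were left out (1 without shRaly 2). The cause was not tested. Over all genes, arrays of the same replicate number had correlations of deviations of 0.093, -0.014, -0.066 and 0.131, against -0.26 to 0.211 for other pairs. With the replicate block 0 of the 32 genes were called. The block lowered the SE for some genes, such as Mt1 (0.178 to 0.103) and Lcn2 (0.378 to 0.235). It raised the SE for others, such as Saa3 (0.195 to 0.224) and Socs3 (0.15 to 0.164). The slide as a block was not run, since there was 1 slide. The difference between groups of positive minus negative medians, 0.005, ran from -0.057 to 0.069 when single arrays were left out. The number of arrays, 4 a group, limits the precision, as the width of the intervals shows.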
